A study of Mus musculus with 6 samples.

Results

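The exon junction complex is a set of proteins that spliceosomes leave on mRNA just upstream of each exon-exon junction, where it guides export, localization, translation and nonsense-mediated decay. Its core is the RNA-clamping helicase Eif4a3, the heterodimer of Magoh and Rbm8a (also called Y14) that locks the helicase on RNA, and Casc3 (also called Barentsz or MLN51). Magohb encodes a near-identical second Mago protein, and Wibg (now Pym1) strips the complex from mRNA on ribosomes. In the developing mouse forebrain, loss of one copy of Magoh, Rbm8a or Eif4a3 is known to reduce brain size. The genes described here are these 6, taken by the gene names of the raw count table, and they are 6 of its 38561 genes.

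RNA was sequenced from 6 libraries of sorted cells of the medial ganglionic eminence (MGE), a ventral forebrain region that produces cortical interneurons. The 2 heterozygous libraries carried 1 floxed Magoh allele (Magoh lox/+) with the Nkx2.1-Cre driver and the ROSAloxSTOPloxTdTomato reporter. The 4 control libraries carried the same Cre and reporter without a floxed allele, and all 6 were C57BL/6 embryos at E11.5. Nkx2.1-Cre acts in cells that express Nkx2-1 and in their descendants, so the allele is floxed in the whole embryo but recombined only there, and the sort keeps cells by the reporter. The study's title asks how the dose of Magoh affects the generation and survival of interneurons. The labels do not say whether a library holds 1 embryo or several. The p-values therefore cover the spread between these libraries, which may be technical.

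The libraries held 37429290 to 49189360 counted reads. The 10 MGE marker genes, Nkx2-1 and Lhx6 among them, summed to 1444 and 2564 CPM in the Magoh lox/+ libraries, against 922 to 1793 CPM in controls (CPM on TMM-scaled library sizes), and none of the 10 was at 0 in all libraries. Control 2 and Magoh lox/+ library 1 had 0 reads from 4 Y-linked genes, and in these libraries long transcripts were also low relative to short ones. The length measure is the median log2 deviation of genes with at least 8000 nt of exon minus that of genes under 1000 nt. It was -0.32 and 0.12 in Magoh lox/+ libraries 1 and 2, against -0.75 in control 2 and 0.15 to 0.38 in controls 1, 3 and 4. Sex and this length difference cannot be told apart between the libraries.

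Whether Magoh reads can be told from Magohb reads depends on how far the transcripts differ, since the proteins are so alike. Magoh (ENSMUSG00000028609; chromosome 4, 107879755 to 107887424, plus strand, GRCm38) has a coding sequence of 438 nt in the GENCODE M21 transcript compared here. Magohb (ENSMUSG00000030188; chromosome 6, 131284388 to 131293244, minus strand) has one of 444 nt in a transcript of as many exons. Over the 438 aligned bases 81.3% were identical, the longest identical run was 17 nt, and 72 of the 82 differences lay at the last base of a codon. The last 150 coding bases before the stop codon are shown from each GENCODE M21 transcript as the stretch that compares the paralogs directly, 5′ to 3′, with the bases that differ in capitals.
Magoh: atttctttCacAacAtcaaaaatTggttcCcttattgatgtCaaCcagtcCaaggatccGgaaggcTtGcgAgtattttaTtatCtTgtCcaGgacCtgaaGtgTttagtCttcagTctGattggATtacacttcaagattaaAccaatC
Magohb: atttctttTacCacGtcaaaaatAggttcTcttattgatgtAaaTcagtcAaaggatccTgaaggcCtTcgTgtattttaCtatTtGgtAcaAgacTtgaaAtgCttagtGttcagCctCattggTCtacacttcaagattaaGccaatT
In this stretch 27 of 150 bases differ, 23 of them at the last base of a codon. Over the aligned coding sequence, a read longer than 17 coding bases holds at least 1 base that tells the paralogs apart. How reads with more than 1 match were counted is not stated by the labels.

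Magoh, the gene that the genotype targets, had fewer reads in both Magoh lox/+ libraries than in every control. It stood at 57.1 and 48.6 CPM in Magoh lox/+ libraries 1 and 2, against 68.1, 118, 63.6 and 74.3 CPM in controls 1 to 4. The groups did not overlap, and control 2 was far above the other controls. The means were 52.8 ± 6.05 CPM in Magoh lox/+ cells (SD, n = 2) and 81.0 ± 25.01 CPM in controls (SD, n = 4). Its log2 fold change of -0.62 (SE 0.27, 95% interval -1.25 to 0.02) did not pass (edgeR's quasi-likelihood test, two-sided, unadjusted p = 0.0558, Benjamini-Hochberg adjusted p = 0.85). That interval holds both 0 and -1, the value of a halved level. Both Magoh lox/+ libraries lay below all controls for 8.14% of tested genes. In bulk samples fewer cells of a type and less RNA per cell cannot be told apart. The labels do not name the floxed exons, so whether a recombined allele still gives reads was not tested.

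The spread of Magoh among controls rested on control 2. Counting error at these depths (2387 to 4238 Magoh reads per library) was small, with 95% counting intervals of 54.9 to 59.4 and 46.6 to 50.5 CPM in the Magoh lox/+ libraries and 61.3 to 66.0 CPM in control 3, the lowest control. The standard deviation of log2 CPM among the 4 controls was 0.40, against a median of 0.34 over all tested genes, and it was 0.11 without control 2. Without control 2 the Magoh difference was -0.37 log2 units (SE 0.14; edgeR, adjusted p = 0.281). With the absence of Y-linked reads as a covariate it was -0.71 with a 95% interval of -1.07 to -0.36 (edgeR, adjusted p = 0.385). After trends of exon length and GC were removed per library, it was -0.52 with an interval of -0.86 to -0.19 (edgeR, adjusted p = 0.535). In that fit the Magoh lox/+ libraries stood at -0.57 and -0.47 log2 units from the control mean, below the controls at -0.19 to 0.17. Both of these unadjusted intervals lie below 0, and the second does not reach a halving, but Magoh did not pass over all genes in either fit. How many other genes had such intervals was not counted. The first interval assumes that the genotype difference is the same with and without Y-linked reads. The second takes the removed trend as exact, though it was estimated from these same libraries.

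The difference for Magoh was -1.05 log2 units between Magoh lox/+ library 1 and control 2, the libraries without Y-linked reads, and -0.50 between Magoh lox/+ library 2 and the mean of controls 1, 3 and 4. Since 3 of the 4 combinations of genotype and Y-linked reads hold 1 library, the values are given side by side as a description. An edgeR fit with an interaction term took the genotype difference without Y-linked reads minus that with them. The term was -0.55 log2 units for Magoh and ran from -0.35 (Magohb) to 0.33 (Casc3) for the other members. It rests on the same single libraries, so only its size is given.

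**Figure D1:**
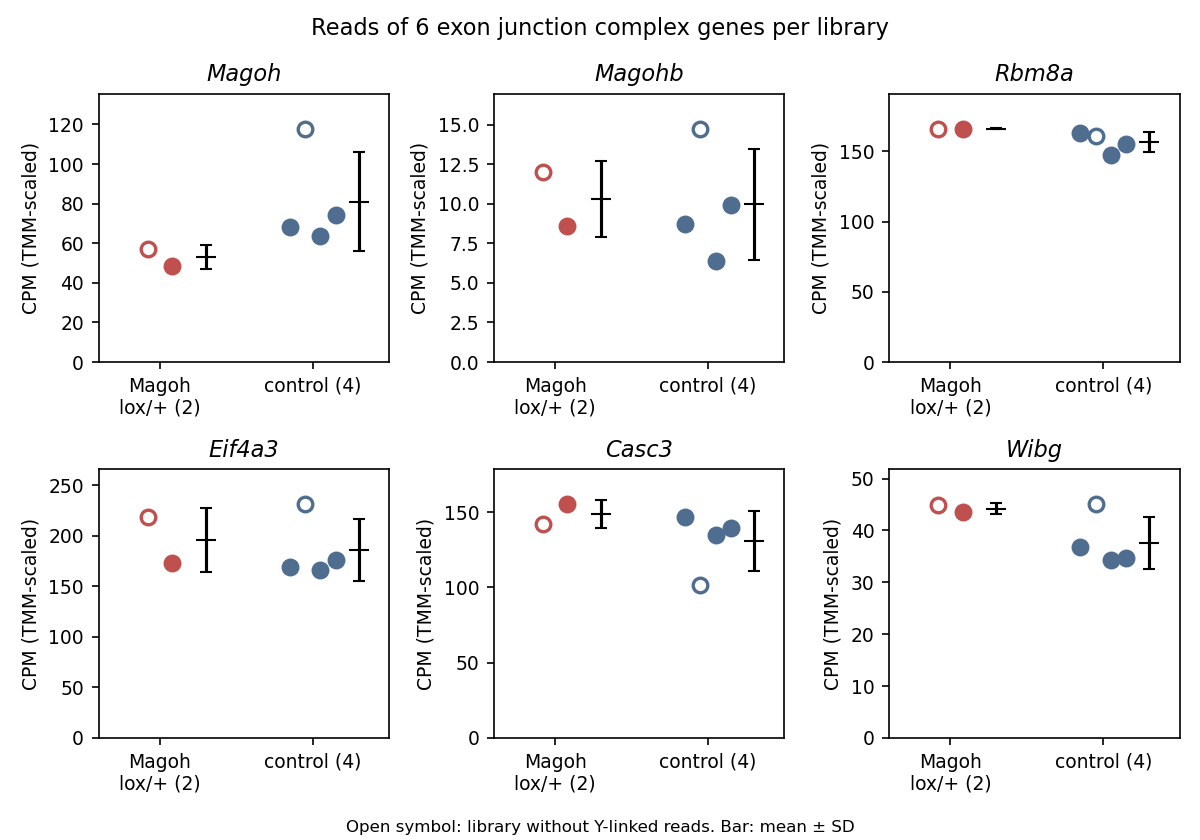
Reads of the 6 genes in each library (TMM-scaled CPM, axes from 0), with Magoh lox/+ libraries in red and controls in blue, open symbols for the 2 libraries without Y-linked reads, and bars for the mean and SD. Magoh lies at 48.6 to 57.1 CPM in Magoh lox/+ libraries and at 63.6 to 118 CPM in controls. Rbm8a is higher in both Magoh lox/+ libraries by less than the control spread, and the other 4 genes overlap between the groups.

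Magohb, the paralog, was the least abundant of the 6 genes and did not separate by genotype. It stood at 11.97 and 8.60 CPM in Magoh lox/+ libraries 1 and 2, against 8.74, 14.7, 6.41 and 9.91 CPM in controls 1 to 4. Both Magoh lox/+ values lay inside the control range, and control 2 was again the highest. Its log2 fold change was 0.05 (SE 0.34, 95% interval -0.74 to 0.84; edgeR, adjusted p = 0.999), and the sign turned in 5 of 18 alternative fits. It had 290 to 530 reads per library, which gives a counting error of about 5.02%, against a coefficient of variation of 35.3% among controls. A processed pseudogene, Gm44958, overlaps Magohb on the same strand and shares 520 nt of exon with it. The raw counts hold no entry for Gm44958, so its part in the Magohb reads was not tested.

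As a share of both paralogs per length of exon, Magohb made up more in Magoh lox/+ cells. Its share of the reads per kb of Magoh plus Magohb was 8.58% and 7.35% in Magoh lox/+ libraries 1 and 2, with 95% Clopper-Pearson counting intervals of 7.85 to 9.36% and 6.66 to 8.09%. In controls 1 to 4 it was 5.43%, 5.30%, 4.31% and 5.64%, and the highest interval reached 6.19%. The groups did not overlap, and control 2 was not apart from the other controls in this ratio. The share contains Magoh, which alone lay below all controls, while Magohb overlapped. How often the shares of other gene pairs separate was not counted. For the CPM of single genes, both Magoh lox/+ libraries lay outside the control range for 14.3% of tested genes. The means were 7.97 ± 0.870% in Magoh lox/+ cells (SD, n = 2) and 5.17 ± 0.588% in controls (SD, n = 4). The difference of 2.79 percentage points had an exact permutation p of 0.0667 (two-sided, 0.133 after adjustment over 4 ratios), the smallest that 2 against 4 libraries allow. The share itself depends on the length used: by coding length it was 14.6% in Magoh lox/+ cells and 9.74% in controls.

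Rbm8a (ENSMUSG00000038374; chromosome 3, 96629933 to 96633791, plus strand), the obligate partner of Magoh protein, varied little. It stood at 166 and 166 CPM in Magoh lox/+ libraries 1 and 2, against 163, 161, 148 and 155 CPM in controls 1 to 4. Both Magoh lox/+ libraries lay above all controls, by a margin smaller than the control spread, and 6.17% of tested genes have that order. The fitted difference was 0.08 log2 units (SE 0.15, 95% interval -0.25 to 0.42; edgeR, adjusted p = 0.999). Its log2 standard deviation among controls was 0.065, and 2.12% of tested genes had a smaller one. Control 2 was the highest or lowest control for each of the other 5 genes, and here it lay among the other controls. A retrocopy listed as B020018G12Rik (Rbm8a2 in RefSeq) had 55 to 103 reads per library, at most 1.47% of the Rbm8a reads.

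Eif4a3 (ENSMUSG00000025580; chromosome 11, 119288363 to 119300089, minus strand), the helicase of the core, stood at 218 and 174 CPM in Magoh lox/+ libraries 1 and 2. Controls 1 to 4 stood at 169, 231, 167 and 176 CPM. The 2 libraries without Y-linked reads were the highest of the 6, and the other 4 lay within 167 to 176 CPM. The Eif4a3 difference was 0.08 log2 units (SE 0.20, 95% interval -0.38 to 0.53; edgeR, adjusted p = 0.999). Without control 2 it was 0.21, and without Magoh lox/+ library 1 it was -0.09. The copies Gm5580 and Gm8994 (Eif4a3l2 and Eif4a3l1 in RefSeq) had at most 31 reads and 1 read in a library.

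Casc3 (ENSMUSG00000078676; chromosome 11, 98804905 to 98833814, plus strand), which stabilizes the assembled complex and has the longest exon sequence of the 6, stood at 142 and 155 CPM in Magoh lox/+ libraries 1 and 2. Controls 1 to 4 stood at 147, 102, 135 and 140 CPM. Control 2 was the lowest library, the reverse of its place for Magoh, Magohb, Eif4a3 and Wibg. Between the genotypes Casc3 differed by 0.18 log2 units (SE 0.19, 95% interval -0.25 to 0.62; edgeR, adjusted p = 0.999). It was 0.09 without control 2 and 0.11 without Magoh lox/+ library 2. With the absence of Y-linked reads as a covariate it was 0.28 (edgeR, adjusted p = 0.454). Casc3 shares 494 nt of exon with the antisense gene Gm12359, which had 91 to 194 reads per library, and 15 nt with Msl1, which had 6959 to 12525. The labels do not say whether counting used strand, so Casc3 and Gm12359 reads in the shared stretch are uncertain.

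Wibg (ENSMUSG00000064030; chromosome 10, 128747889 to 128766564, plus strand), the factor that disassembles the complex, stood at 44.9 and 43.5 CPM in Magoh lox/+ libraries 1 and 2. Controls 1 to 4 stood at 36.8, 45.0, 34.3 and 34.6 CPM. Both Magoh lox/+ libraries lay above controls 1, 3 and 4, and control 2 lay at their level. For Wibg the log2 fold change was 0.23 (SE 0.17, 95% interval -0.17 to 0.63; edgeR, adjusted p = 0.97). Without control 2 it was 0.34 (edgeR, adjusted p = 0.266). It was 0.00 log2 units between Magoh lox/+ library 1 and control 2, and 0.31 between Magoh lox/+ library 2 and controls 1, 3 and 4.

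None of the 6 genes passed over all genes. The edgeR test called 0 of the 16495 tested genes (0%), and at an unadjusted p under 0.05 there were 944 (5.72%; 1.75% higher and 3.98% lower in Magoh lox/+ cells), 0 of the 6 members among them. DESeq2 called 61 genes (0.358%; 0.0293% higher and 0.328% lower), with 6.34% at an unadjusted p under 0.05. Limma-voom called 0 (0%), with 977 (5.92%) at an unadjusted p under 0.05. No member passed with DESeq2 or limma-voom. At an unadjusted p under 0.05 limma-voom had 0 members and DESeq2 had 1, Magoh. In DESeq2 the interval of Magoh was -1.17 to -0.026 (95%, unadjusted p = 0.0404, Benjamini-Hochberg adjusted p = 0.603). The intervals of the 5 members other than Magoh have lower bounds from -0.74 to -0.17 log2 units, so none of them reaches a halving in this fit, and upper bounds from 0.42 to 0.84.

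**Figure D2:**
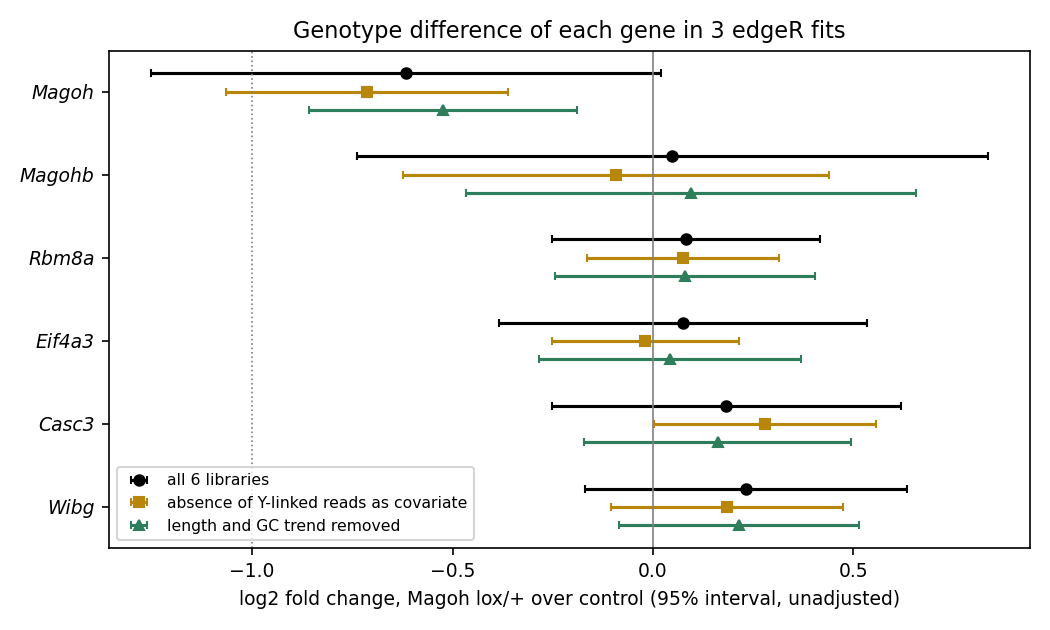
Log2 fold change (Magoh lox/+ over control) of each gene with its unadjusted 95% interval in 3 edgeR fits: all 6 libraries, the absence of Y-linked reads as a covariate, and length and GC trends removed. The solid line marks no difference and the dotted line a halving. Magoh lies at -0.62, -0.71 and -0.52 in the 3 fits, and the other genes lie between -0.09 and 0.28.

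Ratios within a library need no scaling between libraries, and they set Magoh against its partners. The length and GC trends of each library were not removed from these ratios. How often the ratios of other gene pairs separate the groups was not counted, and for the CPM of single genes it was 14.3%. On reads per kb of exon, the log2 ratio of Magoh to Eif4a3 was -0.47 and -0.38 in Magoh lox/+ libraries 1 and 2, against 0.15, 0.49, 0.07 and 0.21 in controls 1 to 4. The groups did not overlap, and the gap between them was larger than the range within either. The means were -0.42 ± 0.068 in Magoh lox/+ cells (SD, n = 2) and 0.23 ± 0.18 in controls (SD, n = 4), a difference of -0.66 log2 units (exact permutation p = 0.0667, two-sided, the smallest possible, and 0.133 after adjustment over the 4 ratios). Without control 2 the difference was -0.57.

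The log2 ratio of Magoh to Rbm8a, its dimer partner, was 0.52 and 0.29 in Magoh lox/+ libraries 1 and 2, against 0.80, 1.61, 0.85 and 0.9998 in controls 1 to 4. The groups did not overlap, and control 2 was the highest. The difference of the means was -0.66 log2 units (exact permutation p = 0.133, adjusted p = 0.178, two-sided), and -0.48 without control 2. The log2 ratio of Magoh to Casc3 was 1.17 and 0.81 in Magoh lox/+ libraries, against 1.37, 2.70, 1.40 and 1.57 in controls. This difference of -0.77 log2 units had an exact permutation p of 0.267 (two-sided, also after adjustment), and without control 2 it was -0.46. All 4 ratios contain Magoh and so are not independent of each other or of its fold change.

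**Figure D3:**
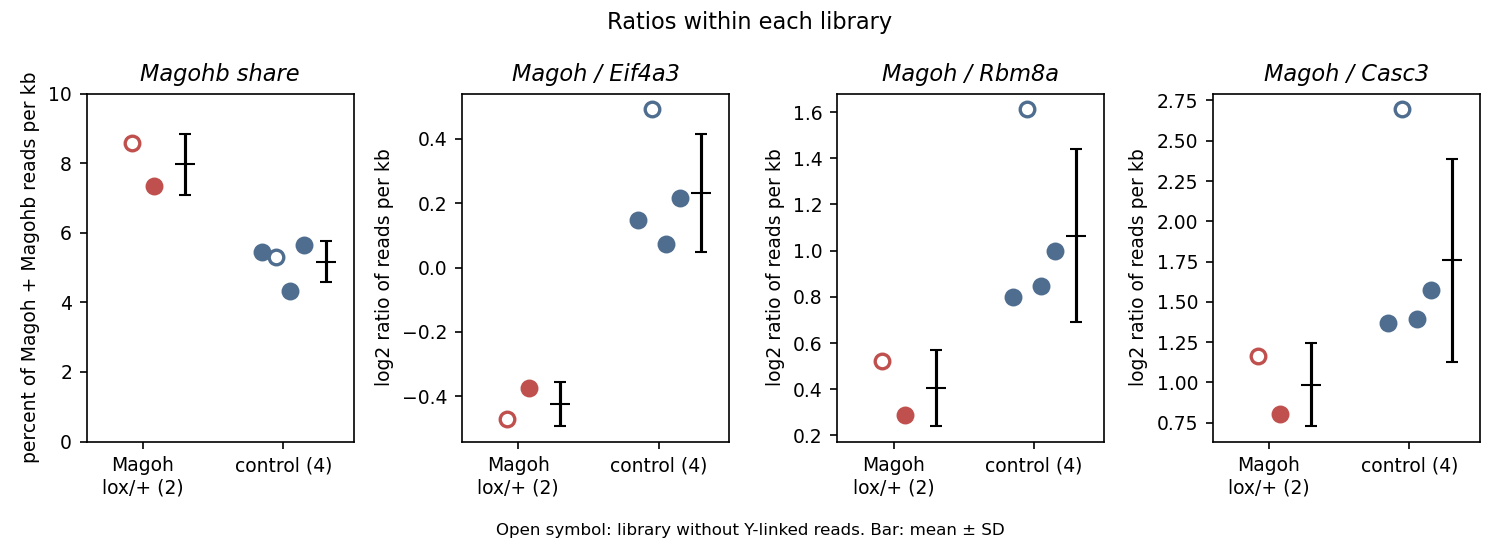
Within-library ratios on reads per kb of exon, with the Magohb share in percent (axis from 0) and the log2 ratio of Magoh to Eif4a3, Rbm8a and Casc3 (axes not from 0). Magoh lox/+ libraries are red, controls blue, open symbols mark libraries without Y-linked reads, and bars give the mean and SD. The Magohb share is 7.35 to 8.58% in Magoh lox/+ libraries and 4.31 to 5.64% in controls, and each Magoh ratio is lower in both Magoh lox/+ libraries than in any control.

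Per kb of exon, the order of the levels in Magoh lox/+ cells was Eif4a3 (92.3 ± 14.9 CPM per kb), Magoh (68.6 ± 7.86), Rbm8a (51.7 ± 0.0917), Casc3 (34.5 ± 2.15), Wibg (33.4 ± 0.743) and Magohb (5.98 ± 1.39; SD, n = 2). In controls Magoh came first at 105 ± 32.5 CPM per kb, before Eif4a3 at 87.6 ± 14.3, Rbm8a at 48.8 ± 2.19, Casc3 at 30.4 ± 4.66, Wibg at 28.4 ± 3.79 and Magohb at 5.79 ± 2.04 (SD, n = 4). The means of Magoh and Eif4a3 in controls differed by less than the SD of Magoh but by more than that of Eif4a3. Magoh was the higher of the pair within each of the 4 controls. The means of Casc3 and Wibg differed by less than the SD of Casc3 in both groups, and which of them was higher differed between libraries. The order depends on the length used. By coding length Rbm8a came first in both groups, at 297 CPM per kb in Magoh lox/+ cells and 280.0 in controls, since most of its exon sequence is not coding. By the longest protein-coding transcript Eif4a3 came first in both groups.

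The members took different places in the libraries with low length measures. In control 2, the library with the lowest share of long transcripts, Magoh stood 0.59, Magohb 0.63, Eif4a3 0.33 and Wibg 0.27 log2 units above the control mean, while Rbm8a stood at 0.04 and Casc3 at -0.35. In Magoh lox/+ library 1, next in the length measure, Magohb stood at 0.33, Eif4a3 at 0.24 and Wibg at 0.26, whereas Magoh stood at -0.46. Rbm8a stood at 0.09 and Casc3 at 0.13 there, so Casc3 was above the control mean in this library and below it in control 2. Magoh has 770 nt of exon and Casc3 4303 nt, the shortest and the longest of the 6. The part of the length measure and of sex in these values was tested only through the covariate, the interaction term and the removed trend given above.

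**Figure D4:**
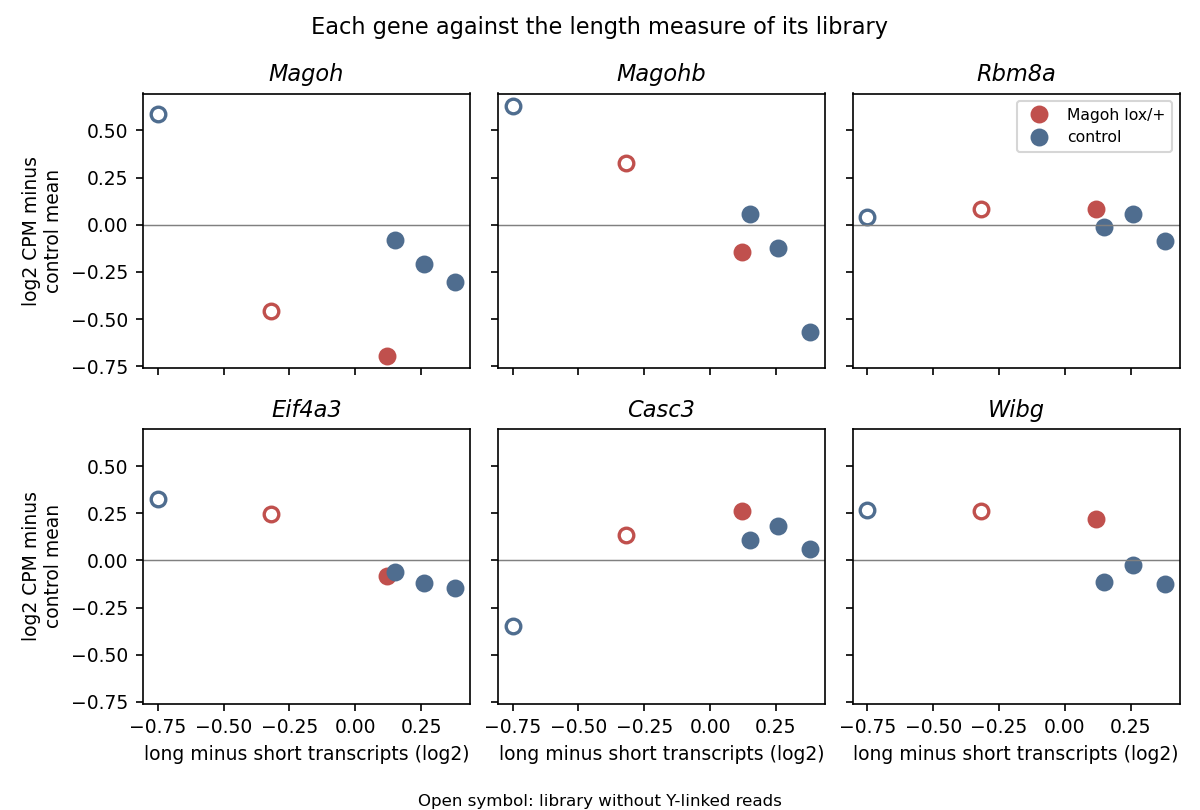
Log2 CPM of each gene minus its mean over the 4 controls (vertical axis) against the length measure of the library (horizontal axis, log2, lower where long transcripts are low relative to short ones). Magoh lox/+ libraries are red, controls blue, and open symbols mark libraries without Y-linked reads. Control 2 lies at -0.75 on the horizontal axis, with Magoh at 0.59 and Casc3 at -0.35.

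Genes whose profile over the 6 libraries was most like that of Magoh were ranked by the root mean square difference of mean-centred log2 CPM, among 9068 genes. The 5 nearest were Slc30a6, a zinc transporter (0.093 log2 units), Slc35g1 (0.094), Dhrs7b (0.095), Plscr1, a phospholipid scramblase (0.116), and Kbtbd8, an adaptor of a ubiquitin ligase (0.118). Slc30a6 stood at 14.2 and 10.3 CPM in Magoh lox/+ libraries 1 and 2, against 14.4, 25.3, 13.8 and 15.1 CPM in controls 1 to 4. Like Magoh it was highest in control 2 and lowest in Magoh lox/+ library 2. None of the other members was among the nearest genes, and their ranks differed widely: Eif4a3 ranked 1827, Magohb 2142, Rbm8a 3816, Wibg 4017 and Casc3 6773. After removal of the length and GC trends the same 5 genes ranked 61 to 532. The members then ranked 3131 (Eif4a3), 4793 (Rbm8a), 4991 (Magohb), 5923 (Wibg) and 6387 (Casc3).

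The factors that meet the complex were taken as 3 lists of 31 genes, all tested. The peripheral list holds export and splicing factors that join the core. The loading list holds splicing partners, cap-binding proteins, the other Eif4a helicases and Nop53 (Gltscr2 in the raw counts). The decay list holds UPF and SMG factors of nonsense-mediated decay, with Dhx34 and Nbas. Over the 31 genes 0 passed edgeR in either direction (0% of all tested genes did), 1 had an unadjusted p under 0.05 (5.72% of all tested genes did), and 0 passed in DESeq2 (0.358% of all tested genes did) or limma-voom (0%). The median log2 fold change was -0.04 for 12 peripheral genes, 0.02 for 7 loading genes and -0.10 for 12 decay genes, against -0.03 for all tested genes. The lowest decay gene was Smg1, the kinase of Upf1, at -0.45 (SE 0.34; edgeR, adjusted p = 0.97), named after its values were seen. Its groups overlapped, at 63.8 and 64.8 CPM in Magoh lox/+ libraries 1 and 2 and 44.4 to 112 CPM in controls.

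The gene with the smallest p was Eif4a2, a translation initiation helicase and paralog of Eif4a3. It stood at 133 and 99.5 CPM in Magoh lox/+ libraries 1 and 2, against 78.1, 99.3, 69.8 and 77.2 CPM in controls 1 to 4. Magoh lox/+ library 2 and control 2 were at the same level, and library 1 stood above them. The Eif4a2 difference was 0.52 log2 units (SE 0.20; edgeR, unadjusted p = 0.0319, adjusted p = 0.85), and it was 0.31 without Magoh lox/+ library 1. Alyref2, an export adaptor named here after its values were seen, was the other list gene with both Magoh lox/+ libraries above all controls, at 7.07 and 7.65 CPM against 4.55 to 6.46 CPM in controls. These 2 of 31 genes stand beside 6.17% of all tested genes with that order, so the share is near the background. The sum of the 5 pan-neuronal markers was also higher in both Magoh lox/+ libraries, at 3123 and 3512 CPM against 1732 to 2546 CPM in controls. Of single tested genes 6.17% have that order. The 5 markers were not compared one by one, and 0 of the 5 were at 0 in all libraries. The sums of the 5 progenitor markers overlapped, at 2684 and 3234 CPM in Magoh lox/+ libraries and 2593 to 4067 CPM in controls. The part of the mix of progenitors and neurons in the values of Eif4a2 and of the 6 members was not tested.

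**Figure D5:**
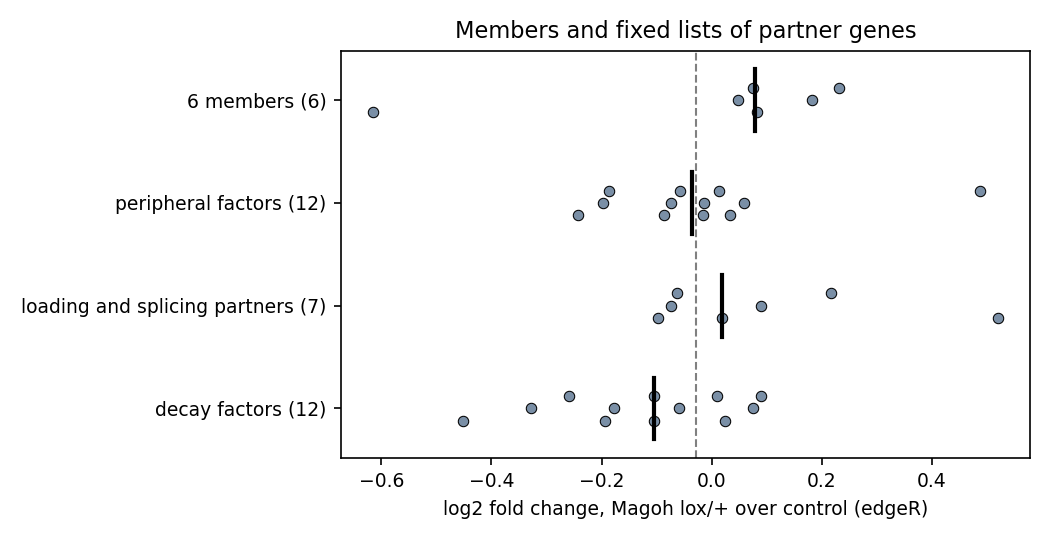
Log2 fold change (Magoh lox/+ over control, edgeR) of the 6 members and of each tested gene of the 3 partner lists, with a black bar at each list's median and a dashed line at the median of all tested genes (-0.03). Magoh at -0.62 lies below every partner gene, whose values run from -0.45 to 0.52.

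Of the markers of other cells that the sort could hold, none was at 0 in all 6 libraries. Blood markers summed to 198 and 0.0814 CPM in Magoh lox/+ libraries 1 and 2 and to 16.9 to 67.9 CPM in controls, and microglial markers to 4.78 and 0 CPM against 1.45 to 49.5 CPM. Endothelial markers summed to 7.54 and 7.16 CPM against 4.90 to 20.99 CPM, surface ectoderm markers to 11.46 and 5.31 CPM against 9.21 to 15.5 CPM, and dorsal telencephalon markers to 153 and 116 CPM against 86.6 to 172 CPM. The part of these cells in the members' values was not tested.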

How the data were processed

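Column-purified RNA of tdTomato-positive telencephalic cells sorted at E11.5 went into a NuGEN mRNA library kit without its globin depletion step, per the labels' protocols. Trim Galore, STAR and HTSeq were used with build mm10, per the submitters' processing notes. The sources used here do not give versions, the annotation or the strand setting.

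The authors deposited raw read counts for 38561 genes and, for 18065 genes, a normalized signal. The deposited signal equalled the counts divided by 1 factor per library, to within a relative difference of 5.1e-15. Columns were matched to samples by code, and 0 belonged to no sample. Libraries were checked for duplicates: every pair differed by at least 30.2 times the counting variance (chi-square per degree of freedom).

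Tested here were the raw counts, with edgeR 4.0.16 (filterByExpr, TMM, robust glmQLFit and glmQLFTest, R 4.3.3), Benjamini-Hochberg adjustment over 16495 genes and a threshold of 0.05. Intervals are unadjusted. SE is the log2 fold change over the square root of the F statistic. Exon length, coding length and sequence came from GENCODE M21 (GRCm38, the assembly behind mm10), and names of copies from RefSeq (GRCm38.p6). Ratios used an exact permutation test over the 15 regroupings. Length and GC trends were removed by loess (span 0.5) for the 98.6% of tested genes with both values. Counting intervals and the floor of 3 counts (0.061 to 0.0802 CPM) cover counting error only, as no molecular identifiers are mentioned. The scripts were tested on simulated data. Alternatives were DESeq2 1.42.0, limma-voom and limma-trend (limma 3.58.1, limma-trend on log2 of the normalized signal plus 1), other scalings and filters, covariates, and leaving out libraries.

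The 6 members and all lists were chosen with earlier results of these data known. Named are the members, up to 6 list genes with an unadjusted p under 0.05, and the 5 nearest genes to Magoh among those averaging 10 CPM or more without a clone name. Copies of members were looked up by their RefSeq names.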

Additional observations from a re-analysis of the deposited data

Results flagged for a closer look

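Control 2 stood far from the other controls for Eif4a3, at 231 CPM against 167 to 176 CPM, with a gap of 0.847 of the range of the 4 controls. It also stood apart in the log2 ratio of Magoh to Casc3, at 2.70 against 1.37 to 1.57, with a gap of 0.848 of the range. For 4 values the gap passes Dixon's 95% limit above 0.829. The 10 values examined were the CPM of the 6 genes and the 4 ratios, and chance passes that limit in about 1 of 20 groups. Control 2 is also the library with the length measure of -0.75 and 0 Y-linked reads.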

How the results depend on the processing

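The Magoh log2 fold change ran from -0.73 to -0.37 over 18 alternatives and passed in 0 of them (adjusted p from 0.195 to 1). Rbm8a (0.04 to 0.11), Casc3 (0.09 to 0.28), Wibg (0.18 to 0.34) and Eif4a2 (0.31 to 0.71) kept their direction in all 18 without passing. The sign of Eif4a3 turned with the absence of Y-linked reads as a covariate (-0.019), and it ran from -0.087 (without Magoh lox/+ library 1) to 0.23 when single libraries were left out. The sign of Magohb turned with that covariate (-0.094), and it ran from -0.20 to 0.31 when single libraries were left out. DESeq2 called 61 genes, and the fit with the sample code number as a replicate block, which leaves 1 residual degree of freedom and was run without robust fitting, called 13, where edgeR called 0. The cause was not tested. With that block the log2 fold change was -0.47 for Magoh and -0.0080 for Magohb (adjusted p = 1 each). The number 70 occurs once in each genotype, so 1 pair carries the block, and the labels do not say what it marks. Controls 2 and 3, which share the number 71, differed most of all 15 pairs of libraries. The Magohb share kept its direction in 9 alternatives, and the 3 log2 ratios did in the 7 that leave out libraries, since another gene length shifts every library alike and cannot change their difference. When single libraries were left out, the difference ran from 2.18 to 3.41 percentage points for the Magohb share and from -0.71 to -0.57 for Magoh to Eif4a3. It ran from -0.78 to -0.48 for Magoh to Rbm8a, and from -0.95 to -0.46 for Magoh to Casc3. Leaving out control 2 and Magoh lox/+ library 1 together, chosen after seeing the data, gave -0.49 for Magoh (adjusted p = 0.195). The lowest read count of a member was 290 (Magohb), and a lower depth was not tested.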
